A study of Mus musculus with 24 samples.

Results

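The Hox genes are described here across 24 RNA sequencing libraries of mouse intestinal organoids, epithelial cultures grown from crypts. Members were all protein-coding genes whose symbol is Hox followed by a cluster letter from a to d and a paralogue number, which gave 39 of the 45706 genes in the tables. They lie in 4 clusters: HoxA on chromosome 6 (11 members, 52155590 to 52260880), HoxB on chromosome 11 (10 members, 96194316 to 96368256), HoxC on chromosome 15 (9 members, 102921103 to 103036852) and HoxD on chromosome 2 (9 members, 74668310 to 74765142), all in GRCm38 coordinates. Organoids came from the proximal small intestine (SI) or the colon (COL) of C57BL/6N mice. Each tissue was represented by 3 donor cultures, 1 per genotype: BraffloxV600E/+ (BRAF), Trp53LSL-R172H/+ (p53), and both alleles together (BRAFp53). Every culture, controls included, also carried Villin::CreERT2, a Cre recombinase driven by the promoter of the intestinal epithelial gene Villin and activated by 4-hydroxytamoxifen (4-HT). On libraries came from organoids given 4-HT for 24 h, at 0.5 µM in SI and at 3.5 µM in COL, which switches the alleles to BRAFV600E, a constitutively active kinase, and p53R172H, a mutant form of a tumour suppressor. Off libraries came from ethanol-treated organoids. RNA was taken 8 days later in SI and 3 days later in COL, and each of the 12 groups held 2 libraries. COL medium further contained Wnt3a and the GSK3 inhibitor CHIR99021, so that tissue, medium, dose and day cannot be told apart. Genotype and donor culture cannot be told apart either, because each genotype was 1 culture per tissue, and p-values over libraries measure the spread between duplicates of a culture and not between animals.

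Hox genes encode homeodomain transcription factors that set position along the head-to-tail axis of the embryo. Within a cluster the genes are arranged in the order in which they are expressed along the axis, low paralogue numbers anteriorly and high numbers posteriorly, and posterior members tend to override anterior ones. In the gut, HoxA, HoxB and HoxD genes are expressed in nested domains from stomach to anus, the caudal-type factors Cdx1 and Cdx2 act upstream of several of them, and adult epithelium keeps part of the pattern. Paralogues 1 to 3 are called anterior here, 4 to 8 central and 9 to 13 posterior.

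Depth was 51.2 to 78.2 M counts per COL library and 44.4 to 68.2 M per SI library. A gene at or under 3 counts was treated as not detected, which corresponds to 0.0384 to 0.0586 counts per 1e6 counts of the raw library total in COL and 0.044 to 0.0676 in SI, and this limit covers counting error only. Levels elsewhere are CPM (counts per 1e6 counts, scaled by trimmed mean of M-values over the 24 libraries), a scale on which 3 counts averaged 0.0559 CPM over the SI off libraries. The labels were checked with Trp53, whose silenced allele is released upon induction. It was higher in both on than in both off libraries of the BRAFp53 and p53 cultures of each tissue, for example 406 and 412 against 199 and 220 CPM in COL p53. The colon enzyme gene Car1 had 86460 counts or more in every COL library and at most 12 in any SI library, and lactase (Lct), an enzyme of the proximal small intestine, had at most 20 counts in COL and 188 or more in SI. Other listed regional genes were less clear. Of 5 tested colon genes, 3 were higher in COL off cultures (edgeR adjusted p under 0.05), and of 5 proximal genes 2 were lower. Aqp8, listed for colon, was 0.266 and 0 CPM in COL BRAF off and 10.8 and 7.32 CPM in SI BRAFp53 off. Onecut2, listed as proximal, was 34.9 and 42.6 CPM in COL BRAF off and 15.9 and 18.2 CPM in SI BRAF off. Summed over 11 marker genes of stroma, endothelium and immune cells, libraries held 0.885 to 4.26 CPM, against at least 5110 CPM over 6 epithelial genes. The COL BRAF culture stood apart from the other COL cultures in Gata4, a factor of the proximal intestine, with 32.1 to 49.4 CPM against 0.293 to 2.67 CPM. Among SI libraries, the library labelled SI BRAF on replicate 1 stood apart. It held 770 counts of Xist, the non-coding RNA of the inactive X chromosome, against 8 to 27 in the other 3 SI BRAF libraries and 6123 to 9743 in the SI BRAFp53 and p53 libraries. Its Y-linked Ddx3y count of 1622 was within the range of the other SI BRAF libraries (1378 to 1881), whereas the SI BRAFp53 and p53 libraries held at most 4. Xist was at most 3 counts in every COL library, so COL and SI cultures named for the same genotype differed in it for BRAFp53 and p53. They differed in Ddx3y as well, with 3097 to 4690 counts in the COL BRAFp53 and p53 libraries. The paper names 3 donor mice, 1 per genotype, and whether both tissues of a genotype came from 1 mouse was not tested. Results that rest on SI BRAF on replicate 1 are given with and without it.

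COL organoids expressed HoxA and HoxB strongly, HoxD weakly and HoxC at or below detection (see the heat map of levels by library). The 39 members together took 14576 to 22940 counts in a COL library. Of these counts, HoxA held 35.2 to 72.8%, HoxB 25.6 to 60.9%, HoxD 1.25 to 5.24% and HoxC at most 0.0186%. In the same 12 libraries, 9 of 11 HoxA, 7 of 10 HoxB and 3 of 9 HoxD members were detected in every library. No HoxC member exceeded 2 counts in any of the 24 libraries. Across both tissues, 21 members were detected in some library of each, 7 in COL libraries only, and 11 in none.

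**Figure D1:**
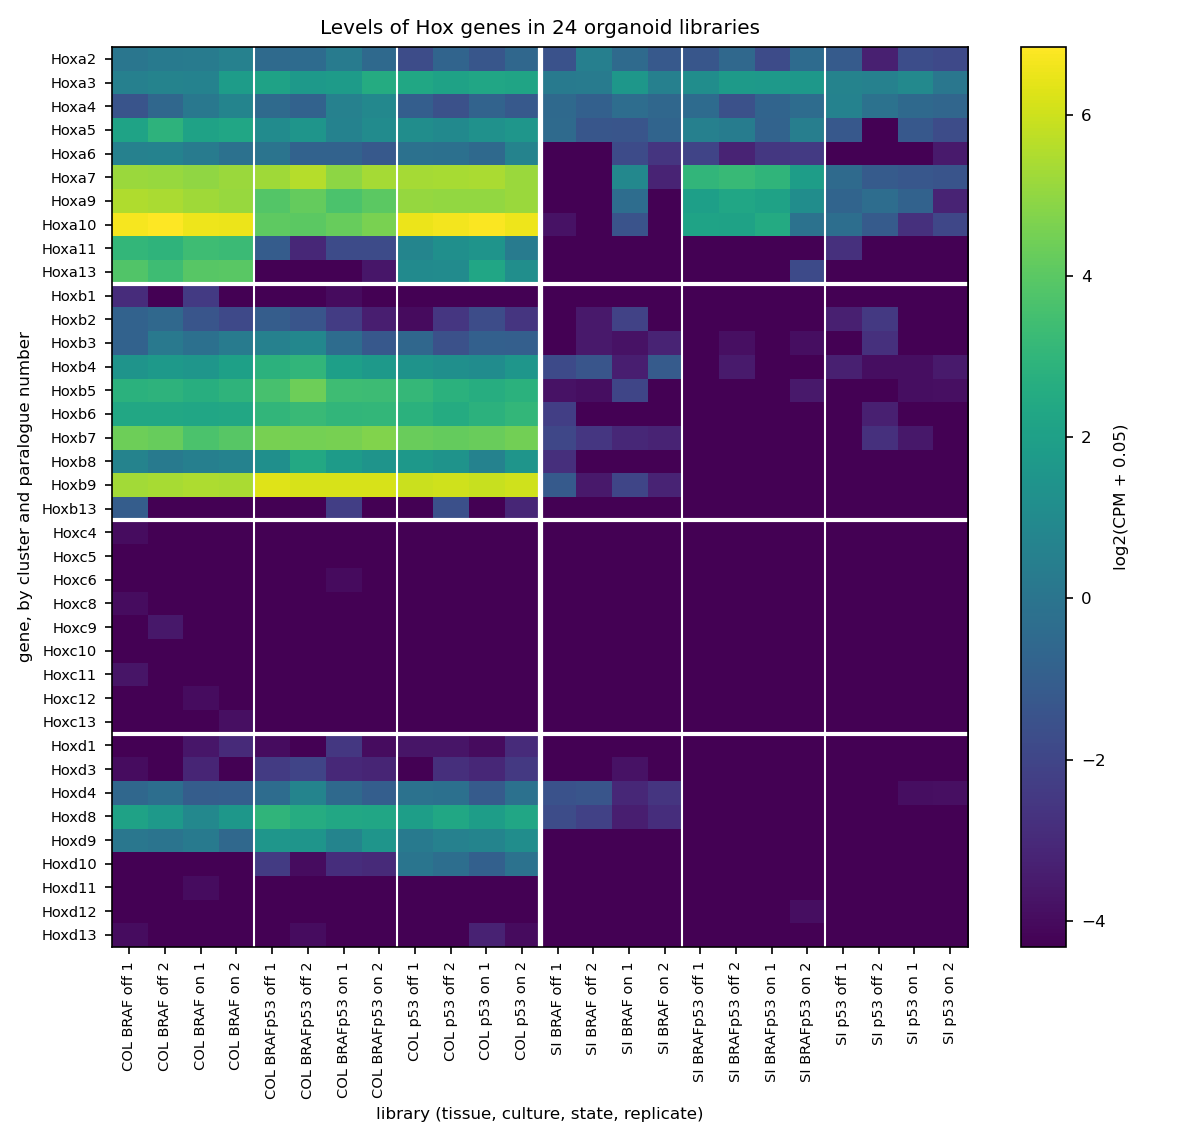
Level of the Hox genes shown (rows, by cluster and paralogue number) in the 24 libraries (columns, by tissue, culture, state and replicate), as log2 of CPM plus 0.05. Horizontal white lines separate clusters, the thick vertical line separates COL from SI, and the HoxC rows stay at or near the bottom of the scale in both tissues.

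Averaged over the COL cultures, levels were higher towards the posterior members of the HoxA and HoxB clusters, but the BRAFp53 culture departed from this. Compared per length of exon, the highest were Hoxb9 (23.1 CPM per kb, mean of the 6 off libraries) and Hoxa10 (22.7), followed by Hoxa7 (14.0) and Hoxb7 (13.4). The next were Hoxa9 (5.63), Hoxb5 (3.77) and Hoxb6 (3.45). The libraries of Hoxb9 and Hoxa10 overlapped on this scale, and so did those of Hoxa7 and Hoxb7, because Hoxa10 alone ranged from 16.2 to 115 CPM over off libraries and Hoxa7 from 35.1 to 48.6 CPM. Anterior members contributed 1.15 to 2.19% of the summed CPM per kb of a COL library, central members 31.9 to 58.5% and posterior members 40.0 to 66.6%. Posterior members held the larger share in all BRAF (62.0 to 66.6%) and p53 (59.9 to 62.6%) libraries. In the 4 BRAFp53 libraries the order was reversed, with 51.6 to 58.5% central and 40.0 to 46.3% posterior. Hoxb8, which lies between Hoxb7 and Hoxb9, stood below both neighbours with 1.01 CPM per kb. At the posterior ends the profile fell again, to 1.49 CPM per kb for Hoxa11, 1.93 for Hoxa13 and 0.0541 for Hoxb13.

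**Figure D2:**
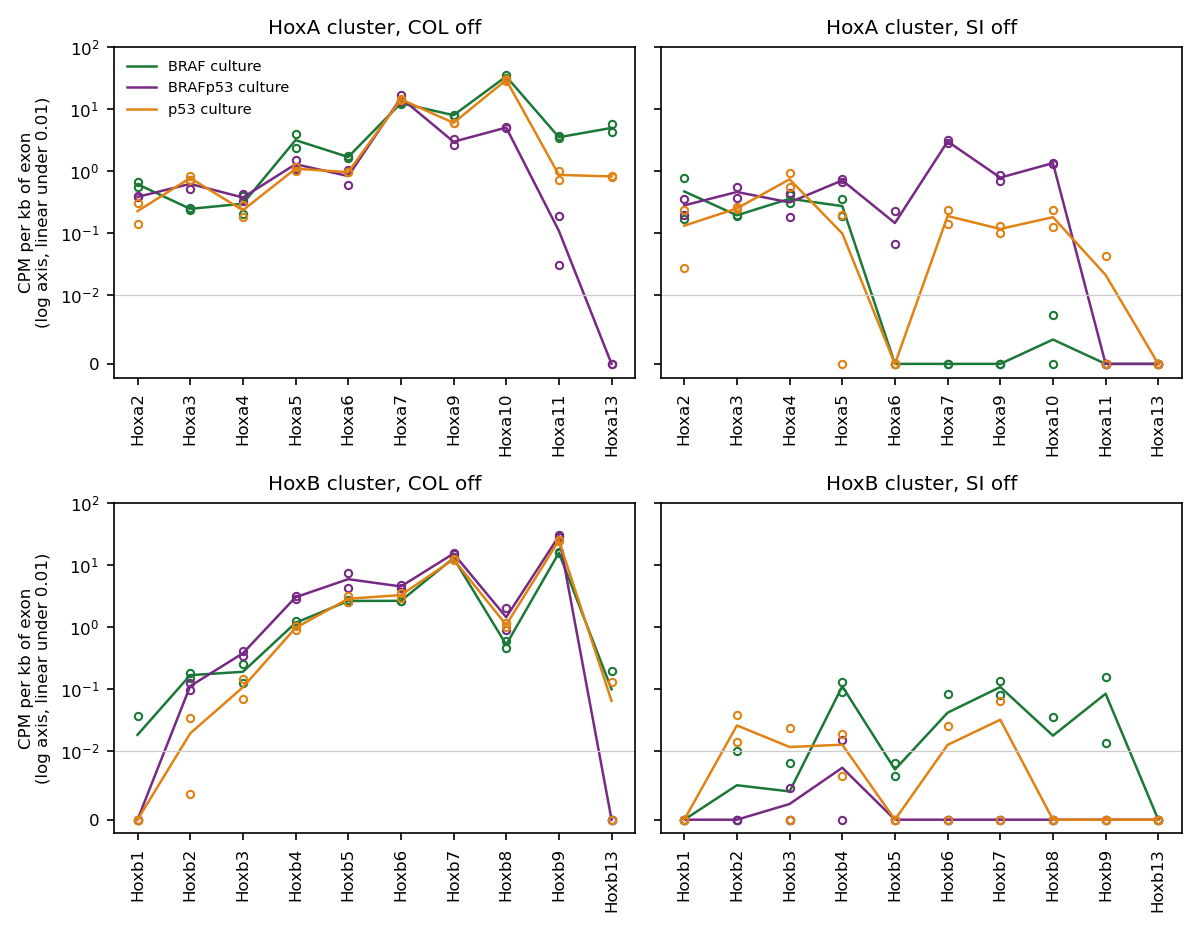
Level per kb of exon of HoxA (upper panels) and HoxB genes (lower panels) in off libraries of COL (left) and SI (right), ordered by paralogue number. Circles are libraries, lines are means of the 2 libraries of a culture, and the log axis is linear under 0.01 CPM per kb. HoxA peaks at Hoxa10 in the COL BRAF and p53 cultures and at Hoxa7 in COL BRAFp53, HoxB peaks at Hoxb9 in all 3, and SI cultures carry HoxA genes at lower levels and almost no HoxB.

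Hoxa10, a posterior factor of the HoxA cluster, had 7437 and 7408 counts in the COL BRAF off libraries, 7055 and 7424 in p53, and 1172 and 1171 in BRAFp53. Hoxb9, the last abundant HoxB gene, had 2803 and 2645 counts in BRAF, 5506 and 5138 in BRAFp53, and 4703 and 4905 in p53. Hoxa7, a central HoxA gene, was even over the cultures, with 35.1 to 48.6 CPM over the 6 off libraries. Its off cultures did not separate in the edgeR quasi-likelihood test (adjusted p = 0.406). Hoxb7 was similarly even at 18.5 to 23.8 CPM (edgeR adjusted p = 0.239). The HoxD cluster was led by Hoxd8 (3.19 to 7.86 CPM in off libraries), then Hoxd9 (0.935 to 2.88 CPM) and Hoxd4 (0.617 to 1.6 CPM). Counts of Hoxd4 and Hoxd3 are uncertain, because their exons overlap and only 47.7% and 37.2% of their exon bases are free of another gene.

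The members seen in COL libraries only were all scarce apart from Hoxd9 and Hoxd10. Hoxb13, the most posterior HoxB gene and a marker of hindgut and prostate, was irregular among duplicates. It had 31 and 0 counts in COL BRAF off, 0 and 21 in p53 off, 13 and 0 in BRAFp53 on, 0 and 5 in p53 on, and 0 elsewhere. Hoxb1 was detected in 2 libraries (6 and 9 counts, both of the COL BRAF culture), Hoxd1 in 3 (at most 10 counts), Hoxd3 in 8 (at most 14 counts) and Hoxd13 in 1 (4 counts). Hoxd11 and Hoxd12 never exceeded 1 count. For Hoxb1, Hoxd1, Hoxd11, Hoxd12 and Hoxd13 a difference between groups was not detectable at this depth.

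SI organoids expressed mainly HoxA, at much lower levels. The 39 members together took 137 to 1244 counts in an SI library, or 2.92 to 24.1 CPM against 201 to 308 CPM in COL. HoxA held 64.0 to 100% of these counts. Only Hoxa3 and Hoxa4 were detected in all 12 SI libraries, and no HoxB, HoxC or HoxD member was. Per kb of exon, the highest means of the off libraries were those of Hoxa7 (1.06 CPM per kb), Hoxa10 (0.508), Hoxa4 (0.468), Hoxa5 (0.358), Hoxa3 (0.3) and Hoxa9 (0.299). The means of Hoxa7, Hoxa9 and Hoxa10 rested on the BRAFp53 culture, as given further on, whereas Hoxa3 had 49 to 173 counts and Hoxa4 15 to 92 counts over all 6 off libraries. Anterior members made up 9.11 to 53.1% of the summed CPM per kb of an SI library, and posterior members 0.71 to 36.9%. The anterior share of every SI library was thus above that of every COL library, and the posterior share was below it.

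The comparison of off organoids between tissues asked which Hox genes differed between COL and SI cultures. The 24 libraries hold no uncultured crypts, so how far regional identity was kept in culture was not tested. Each culture's 2 off libraries were summed, giving 3 COL against 3 SI cultures. In bulk RNA, fewer cells that express a gene and less RNA per cell cannot be told apart. Of the 39 members, 20 had enough counts to be tested and 12 of these were called, all higher in COL (edgeR, Benjamini-Hochberg adjusted p under 0.05). Over all 17789 genes tested, 29.6% were called, and 17.0% were called higher in COL. For 15 of the 39 members all 6 COL off libraries lay above all 6 SI off libraries, against 5.9% of all genes in the table, and for 0 did they lie below, against 6.13%. The median log2 difference of the tested members was 5.2, against 0.08 over all tested genes. Members with SI counts at or near 0, such as Hoxb5, Hoxb8 and Hoxd9, passed the filter through their COL counts and could be called in that direction alone. The count of 12, its adjusted p-values and the median are therefore descriptions of the tested members.

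The 7 tested HoxB members were higher in COL and at or near 0 in most SI off libraries. Hoxb7 had 1211 to 1679 counts in the 6 COL off libraries and 0 to 9 in SI (log2 difference 8.25, SE 0.81, edgeR adjusted p = 0.00157). Hoxb9 had 2645 to 5506 counts in COL and 0 to 17 in SI (log2 difference 9.97, SE 1.04, edgeR adjusted p = 0.00186). Hoxb5 had 482 to 1505 counts in COL and at most 1 in any SI off library (edgeR adjusted p = 0.00103), too few in SI for a fold. Hoxb3, Hoxb4, Hoxb6 and Hoxb8 were also called higher in COL (edgeR adjusted p of 0.00186 to 0.0111). Of the 10 HoxB genes, 7 were therefore called, and the others, Hoxb1, Hoxb2 and Hoxb13, were not tested.

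In HoxD, Hoxd9 had 60 to 203 counts in COL off libraries and 0 in all 12 SI libraries. Against a floor of 3 counts per SI library it was at least 30.5-fold higher in COL (edgeR adjusted p = 0.00347). Hoxd8 had 205 to 554 counts in COL and 0 to 11 in SI (log2 difference 6.22, SE 1.34, edgeR adjusted p = 0.0145). The SI counts of Hoxd8 came from the BRAF culture alone. Hoxd10, at 0 in all SI libraries and in the COL BRAF culture, was at least 5.6-fold higher in the mean of COL off libraries and was not tested. For Hoxd4 all COL libraries lay above all SI libraries, yet the difference did not pass (log2 difference 3.13, SE 1.44, edgeR adjusted p = 0.144).

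In HoxA, 3 members were called and others were not. Hoxa2 and Hoxa3 differed by log2 0.43 (SE 0.6) and 0.89 (SE 0.52), and Hoxa4, with 22 to 47 counts in COL and 15 to 92 in SI off libraries, by -0.61 (SE 0.47). Their edgeR adjusted p-values were 0.627, 0.232 and 0.356. Hoxa5 did not pass either (edgeR adjusted p = 0.053), although all its COL off libraries lay above all SI off libraries. Hoxa10 was called higher in COL (log2 difference 5.51, SE 1.51, edgeR adjusted p = 0.0326). Hoxa6 and Hoxa11 were also called higher (edgeR adjusted p = 0.035 and 0.0164), and no fold is given because their mean SI levels lay under the floor of 3 counts per library. Hoxa6 had 38 to 102 counts in COL off libraries, and among SI off libraries 10 and 3 in BRAFp53 and 0 in the others. Hoxa11 had 5 to 595 counts in COL off libraries, and in SI 6 counts in p53 off replicate 1 and 0 elsewhere. Hoxa7 was higher in every COL off library than in any SI off library (2254 to 3522 against 0 to 474 counts) but did not pass across cultures (log2 difference 3.75, SE 1.51, edgeR adjusted p = 0.104), and neither did Hoxa9 (4.27, SE 1.4, adjusted p = 0.0575). The 3 SI cultures differed among themselves in both genes. Hoxa13, which marks the hindmost gut, was at 0 in all 6 SI off libraries, and the mean COL level of 4.77 CPM was at least 85.3-fold above the floor of 3 counts, although 1 of the 3 COL cultures lacked it. It did not pass the filter of this comparison and was not tested. The calls of Hoxa6, Hoxa10 and Hoxa11 were lost under some alternatives (largest adjusted p of 0.0864, 0.113 and 0.0832).

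Among COL cultures posterior HoxA genes, and also HoxB and HoxD genes, differed. The off cultures differed in 13 of the 39 members, of 25 tested (edgeR F-test over 3 cultures), against 32.1% of all 18972 genes tested. The 13 were Hoxa3, Hoxa5, Hoxa9, Hoxa10, Hoxa11, Hoxa13, Hoxb4, Hoxb5, Hoxb6, Hoxb8, Hoxb9, Hoxd9 and Hoxd10. Hoxa13, for which the cultures separated fully, had 1002 and 677 counts in BRAF off, 151 and 153 in p53 off, and 0 and 0 in BRAFp53 off. Against the floor of 3 counts per library the BRAF culture was at least 293-fold above BRAFp53 (edgeR adjusted p = 1.11e-05). The on libraries kept the same order, with 1018 and 834 counts in BRAF, 359 and 173 in p53, and 0 and 2 in BRAFp53.

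Hoxa11, the neighbour of Hoxa13, followed the same order, with 595 and 493 counts in BRAF off, 126 and 172 in p53 off, and 30 and 5 in BRAFp53 off (32.4-fold between the highest and lowest culture means, edgeR adjusted p = 0.000288). The lowest of these means joins unlike duplicates, at 0.426 and 0.0691 CPM, so the size of this fold depends on which library is taken. Hoxa10 was 6.7-fold higher in BRAF than in BRAFp53 (110 ± 7.92 and 16.4 ± 0.327 CPM, SD, n = 2 libraries, edgeR adjusted p = 1.08e-06) and reached 96.2 ± 4.52 CPM in p53. Hoxa9 spanned 2.67-fold, from 44.3 ± 1.08 CPM in BRAF and 33.4 ± 0.481 in p53 to 16.6 ± 2.78 in BRAFp53 (edgeR adjusted p = 0.000178). The range between cultures thus widened from Hoxa9 through Hoxa10 and Hoxa11 to Hoxa13, and Hoxa7 did not differ. Counts of Hoxa11 and its antisense neighbour Hoxa11os share exon bases (65.0% of Hoxa11 exon bases are free of another gene), and since the use of strand is not given, their reads cannot be told apart. Hoxa11os had 955 and 831 counts in BRAF off, 192 and 243 in p53 off, and 5 and 13 in BRAFp53 off, in the order of Hoxa11.

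**Figure D3:**
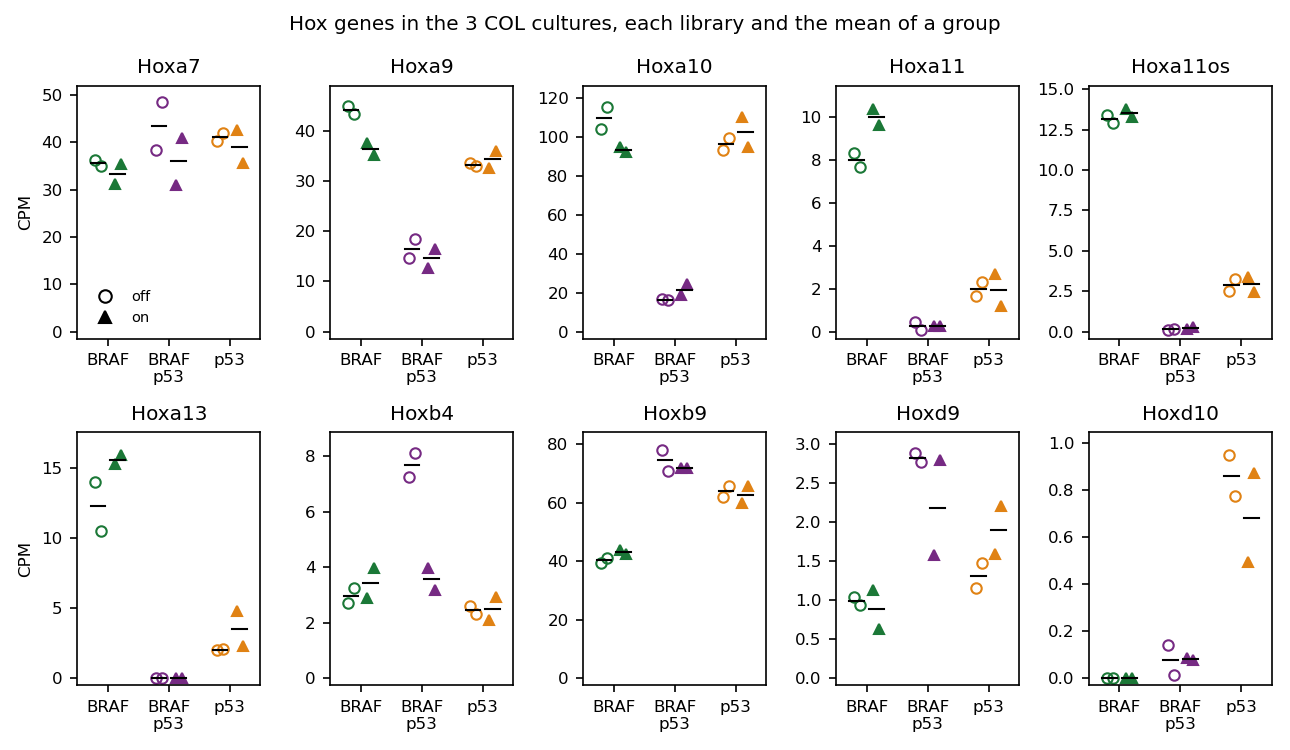
CPM of 9 Hox genes and the antisense gene Hoxa11os in the 3 COL cultures. Circles are off libraries, triangles are on libraries, and bars are means of the 2 libraries of a group. Hoxa9, Hoxa10, Hoxa11 and Hoxa13 are lowest in the BRAFp53 culture in both states, Hoxb9 is lowest in the BRAF culture, and Hoxd10 is at 0 in the 4 BRAF libraries.

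HoxB and HoxD genes were ordered otherwise. Hoxb9 was 74.6 ± 5.08 CPM in BRAFp53, 63.8 ± 2.59 in p53 and 40.2 ± 1.36 in BRAF (SD, n = 2 libraries, edgeR adjusted p = 0.000308). Hoxb4 was 7.69 ± 0.624 CPM in BRAFp53 off and 2.97 ± 0.379 and 2.46 ± 0.208 CPM in BRAF and p53 off (edgeR adjusted p = 0.00144). The 5 HoxB genes that differed were all highest in BRAFp53, by 1.71 to 3.12-fold over the lowest culture. Hoxa5, a central HoxA gene, was highest in BRAF (319 and 471 counts, against 144 and 202 in BRAFp53 and 166 and 142 in p53, edgeR adjusted p = 0.00398). Hoxd10, a posterior HoxD gene, had 72 and 58 counts in p53 off, 10 and 1 in BRAFp53 off, and 0 in all 4 libraries of the BRAF culture. It was at least 19.4-fold higher in p53 off than in BRAF off (edgeR adjusted p = 0.00352). Hoxd10 passed the filter on low counts through the p53 culture alone, so this p-value is a description. The BRAF culture thus had the highest Hoxa13 and no Hoxd10. Gata4, as given above, was high in the BRAF culture, where Hoxa13, Hoxa11 and Hoxa10 were highest. Whether the crypts came from different stretches of the colon was not tested. Without COL BRAF off replicate 2, 8 of the 13 differences were left, and Hoxa9, Hoxa10, Hoxa11, Hoxa13, Hoxb4, Hoxb9 and Hoxd10 passed under all 10 alternatives.

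The promoters of these genes are shown so that Hoxa7, which was even over COL cultures, can be set beside Hoxa10, Hoxa11 and Hoxa13, which were not. Sequences are from RefSeq (GRCm38.p6) and run 5′ to 3′ over 300 bases around an annotated start. Capitals mark TTTAT, or ATAAA on the other strand, a core often bound by caudal-type factors such as Cdx2.
Hoxa7 (chr6:52218524-52218823, minus strand): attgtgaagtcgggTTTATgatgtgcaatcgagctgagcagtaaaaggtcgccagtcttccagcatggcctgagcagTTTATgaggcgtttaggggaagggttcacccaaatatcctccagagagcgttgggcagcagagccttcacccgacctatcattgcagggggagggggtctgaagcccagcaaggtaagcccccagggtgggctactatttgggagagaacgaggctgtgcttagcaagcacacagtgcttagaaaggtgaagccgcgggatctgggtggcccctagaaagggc
Hoxa10 (chr6:52240805-52241104, minus strand): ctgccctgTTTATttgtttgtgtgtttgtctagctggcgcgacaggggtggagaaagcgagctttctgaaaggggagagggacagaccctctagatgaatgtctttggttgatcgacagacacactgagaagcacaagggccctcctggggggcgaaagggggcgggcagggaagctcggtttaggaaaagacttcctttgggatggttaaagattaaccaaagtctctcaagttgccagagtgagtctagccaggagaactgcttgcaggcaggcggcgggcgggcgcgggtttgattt
Hoxa11 (chr6:52245761-52246060, minus strand): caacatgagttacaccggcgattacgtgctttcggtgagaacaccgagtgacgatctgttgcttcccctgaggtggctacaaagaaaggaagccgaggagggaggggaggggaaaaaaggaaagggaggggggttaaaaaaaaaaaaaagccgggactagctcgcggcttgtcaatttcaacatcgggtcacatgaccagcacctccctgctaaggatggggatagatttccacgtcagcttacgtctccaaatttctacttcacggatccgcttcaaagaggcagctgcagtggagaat
Hoxa13 (chr6:52260831-52261130, minus strand): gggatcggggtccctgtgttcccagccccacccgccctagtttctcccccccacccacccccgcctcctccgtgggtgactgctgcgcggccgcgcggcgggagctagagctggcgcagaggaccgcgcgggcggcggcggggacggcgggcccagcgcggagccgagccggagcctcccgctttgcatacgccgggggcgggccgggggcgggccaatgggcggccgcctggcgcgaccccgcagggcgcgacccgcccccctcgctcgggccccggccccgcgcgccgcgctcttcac
The Hoxa7 window holds 2 such runs, the Hoxa10 window 1, and those of Hoxa11 and Hoxa13 0. The motif is in 40.0% of the 32851 promoters of the table and in 9 of 24 Hox promoters (37.5%). CpG pairs numbered 9 in Hoxa7, 12 in Hoxa10, 15 in Hoxa11 and 45 in Hoxa13, the last more than in 98.1% of all promoters. A match is a description of these windows, and nothing on binding or methylation was measured.

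Among SI cultures Hoxa7, Hoxa9 and Hoxa10 varied, with BRAFp53 highest. The off cultures differed in 4 of the 39 members, of 11 tested, against 6.92% of all 16856 genes tested. Among these, Hoxd4 passed the filter on low counts through the BRAF culture alone, so the count describes the tested members. Hoxa7 had 412 and 474 counts in BRAFp53 off, 42 and 25 in p53 off, and 0 and 0 in BRAF off. BRAFp53 was at least 141-fold above the floor of 3 counts in BRAF (edgeR adjusted p = 0.000674). Hoxa9 had 197 and 252 counts in BRAFp53 off, 35 and 45 in p53 off and 0 and 0 in BRAF off, at least 71.7-fold between the extremes (edgeR adjusted p = 0.00598). Hoxa10 had 228 and 223, 48 and 25, and 1 and 0 counts in the same order (edgeR adjusted p = 0.00305). For each of the 3 genes the off libraries of the cultures did not overlap. Hoxa7 and Hoxa9 passed under all 11 alternatives, and Hoxa10 under 10.

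The SI BRAF culture, which lacked these HoxA genes in off libraries, held traces of HoxB and HoxD instead. Hoxd4 had 13 and 19 counts in BRAF off and 0 in the other 4 off libraries, at least 5.42-fold above the floor (edgeR adjusted p = 0.0325), a difference that passed under 4 of 11 alternatives. It passed the filter on low counts through these BRAF libraries and could be called as highest there alone. Its adjusted p-value is therefore a description. Hoxd8 had 11 and 10 counts in BRAF off and 0 in all SI BRAFp53 and p53 libraries, and was not tested. Hoxb4 had 10 and 19 counts in BRAF off and at most 3 in the other SI cultures (edgeR adjusted p = 0.24). Hoxb9 had 17 and 2 counts in BRAF off and 9 and 2 in BRAF on, and 0 in the other 8 SI libraries. HoxA held 64.0 to 90.5% of Hox counts in this culture, 91.3 to 98.4% in p53 and 99.5 to 100% in BRAFp53.

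Other regional genes also differed among the SI cultures. Pdx1, a factor of the duodenum, was 7.89 ± 0.486 CPM in BRAFp53 off, 4.18 ± 0.0727 in p53 off and 0.39 ± 0.387 in BRAF off (edgeR adjusted p = 0.00121). Osr2 had 1 and 1 counts in BRAFp53 off, 1679 and 1916 in p53 off and 4363 and 5337 in BRAF off (edgeR adjusted p = 1.2e-10). Lct ran against Pdx1, with 18.6 and 20.1 CPM in BRAFp53 off, 33.5 and 37.7 in p53 off and 73.8 and 53.8 in BRAF off (edgeR adjusted p = 4.69e-05). Onecut2 was 144 ± 7.79 CPM in BRAFp53 off, 151 ± 21.1 in p53 off and 17.1 ± 1.6 in BRAF off, and Gata4 99.3 ± 1.86, 117 ± 1.45 and 81.6 ± 2.07 CPM (SD, n = 2 libraries, edgeR adjusted p = 0.00052 and 0.0185). These 4 of the 5 genes listed for the proximal small intestine, Pdx1, Lct, Onecut2 and Gata4, differed among the cultures, against 6.92% of all tested genes, and did not share an order. Of 3 genes listed for the ileum, 2 differed and were highest in the BRAF culture. Fabp6 had 7 and 8 counts in BRAFp53 off, 21 and 10 in p53 off and 96 and 139 in BRAF off (edgeR adjusted p = 4.04e-05), and Slc10a2 had 1 and 0, 16 and 1, and 84 and 22 (edgeR adjusted p = 0.0125). Whether the cultures came from different stretches of the small intestine was not tested.

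Induction of BRAFV600E or p53R172H changed few Hox genes in COL. In COL BRAF, 1 of 25 tested members was called, against 19.9% of all tested genes (9.61% called lower). Hoxb7 fell, from 20.7 and 18.9 CPM off to 12.7 and 15.4 CPM on (log2 fold change -0.49 with an SE of 0.14, adjusted p = 0.0285 by edgeR). Both on libraries lay below both off libraries. Without COL BRAF off replicate 1, off replicate 2 or on replicate 1 the adjusted p was 0.163, 0.0716 and 0.228, so the call needed each of them. In COL BRAFp53, 1 of 25 was called, against 17.7% of all tested genes (7.76% called lower). Hoxb4 fell from 7.25 and 8.13 CPM off to 3.95 and 3.18 CPM on (log2 fold change -1.11 with an SE of 0.27, adjusted p = 0.0152 by edgeR), and both on libraries lay within the 2.08 to 3.98 CPM of the other COL cultures. Without COL BRAFp53 off replicate 2, on replicate 1 or on replicate 2 the adjusted p was 0.0739, 0.0507 and 0.113. In COL p53, 0 of 25 were called by edgeR, against 0.142% of all tested genes. None reached an unadjusted p under 0.05, and DESeq2 and limma-voom also called 0.

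**Figure D4:**
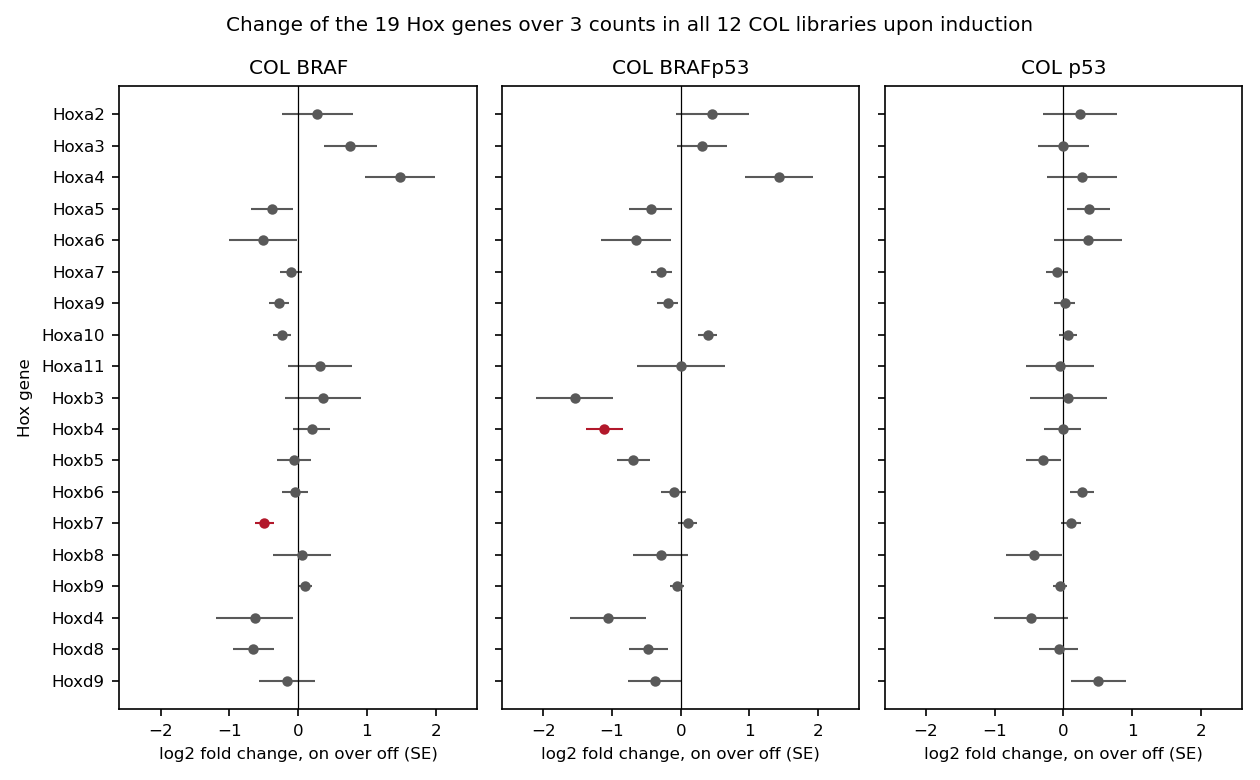
Log2 fold change, on over off, of the 19 Hox genes with over 3 counts in all 12 COL libraries, in each COL culture. Points are edgeR estimates, bars are SE, and red marks an adjusted p under 0.05. The red points are Hoxb7 in BRAF (-0.49) and Hoxb4 in BRAFp53 (-1.11).

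The other tested members did not pass by edgeR in any COL culture. DESeq2 called 2 members in COL BRAF and 4 in COL BRAFp53, and limma-voom 1 and 3. The median SE of a fold change over the 25 tested members was 0.4 in each COL arm. The median log2 fold change was -0.05 in BRAF, -0.19 in BRAFp53 and 0.07 in p53, against -0.01, -0.04 and 0.0 over all tested genes. Hoxa7 went from 36.3 and 35.1 to 31.3 and 35.4 CPM in BRAF, from 38.4 and 48.6 to 31.0 and 41.0 CPM in BRAFp53, and from 40.4 and 42.1 to 42.6 and 35.7 CPM in p53. None of these changes passed. Hoxa4, with 23 and 40 counts in BRAF off and 71 and 83 in BRAF on, and 47 and 38 in BRAFp53 off and 117 and 116 in BRAFp53 on, was higher in both on libraries of each but did not pass (log2 fold changes 1.48 and 1.43 with SE of 0.51 and 0.5, adjusted p = 0.0621 and 0.0716 by edgeR). In the same on libraries Vil1, the gene of the brush border protein villin, was higher (772 and 696 against 425 and 415 CPM in BRAF, adjusted p = 0.0021 by edgeR, and 751 and 593 against 443 and 396 CPM in BRAFp53, adjusted p = 0.00602), and its part in these values was not tested. The responses of BRAFp53 and BRAF differed for 0 of 25 members by edgeR (0.907% of all tested genes), with 5 at an unadjusted p under 0.05, 2 called by DESeq2 and 0 by limma-voom.

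In SI the only Hox calls upon induction arose in the BRAF culture. Of 11 tested members, 3 were called higher in SI BRAF on than off, Hoxa6, Hoxa7 and Hoxa9, against 31.7% of all tested genes and 17.5% called higher (edgeR adjusted p = 0.0455, 0.00458 and 0.0283). Hoxa7 had 0 and 0 counts off and 81 and 2 on. Hoxa9 had 0 and 0 counts off and 33 and 0 on, and Hoxa6 had 0 and 0 off and 11 and 4 on. The Hoxa7 and Hoxa9 counts therefore stood in on replicate 1 alone, the library with 770 Xist counts. Hoxa7 in this library was known when the set was chosen, so these tests describe that observation again. Without that library 0 of the 39 members were called in this comparison, and without SI BRAF off replicate 1 or 2 only Hoxa7 was, at 1 call each. Hoxa10, with 1 and 0 counts off and 14 and 0 on, showed the same library apart without a call.

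The counts of that library were set beside the other SI cultures. Xist in SI BRAF on replicate 1 (17.1 CPM) was 11.6% of the mean level of the SI BRAFp53 libraries, and the SI p53 libraries held 115 to 156 CPM. Hoxa7 (1.8 CPM) was 25.1% of the BRAFp53 mean, Hoxa9 19.4% and Hoxa10 8.15%. Hoxa6 (0.245 CPM) was 191% of the BRAFp53 mean and 26.2% of the COL mean. The 191% rests on 11 counts, against 3 to 10 in the BRAFp53 libraries, too few to place this library above that culture. Relative to the p53 culture the levels of Hoxa7, Hoxa9 and Hoxa10 were 409%, 157% and 83.9%, and relative to COL libraries 4.72%, 2.45% and 0.425%. The ratio of Hoxa7 to Hoxa10 counts was 5.79 in this library, 1.38 to 4.17 in SI BRAFp53, 0.875 to 3.67 in SI p53, 0.304 to 0.434 in COL BRAF and p53, and 1.66 to 3.01 in COL BRAFp53. Car1, abundant in COL, had 12 counts in this library, 5 in its duplicate and 0 in the other 10 SI libraries. A mixture of RNA or organoids from another culture was not tested as a cause.

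**Figure D5:**
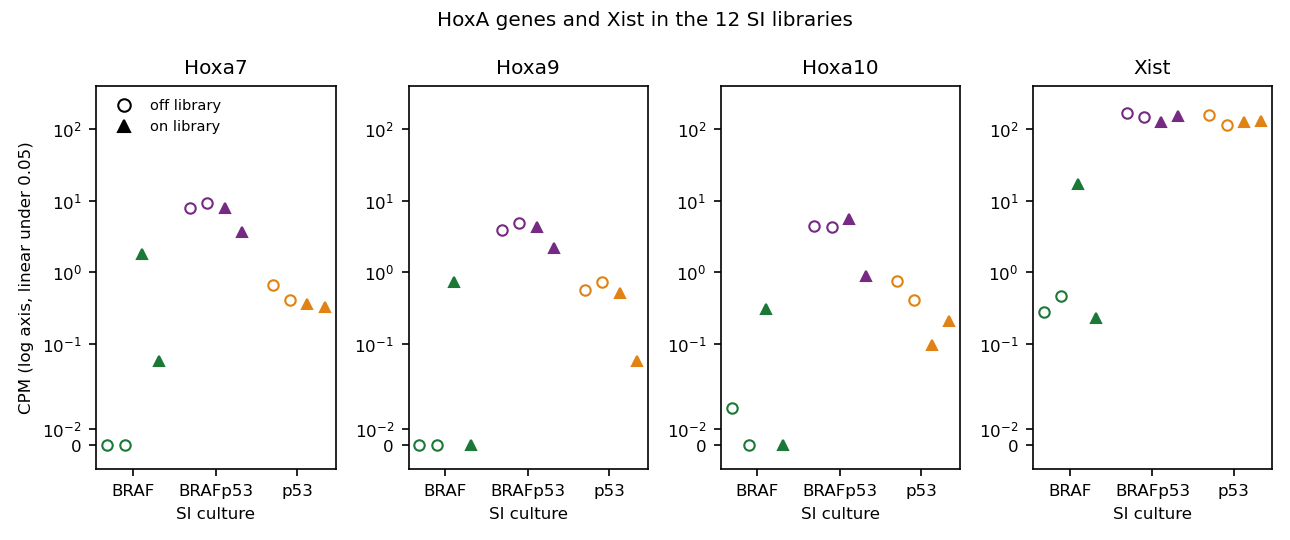
CPM of Hoxa7, Hoxa9, Hoxa10 and Xist in the 12 SI libraries, by culture. Open circles are off and filled triangles are on libraries, and the log axis is linear under 0.05 CPM. SI BRAF on replicate 1 stands above the other 3 BRAF libraries in all 4 genes, at 1.8 CPM of Hoxa7 and 17.1 CPM of Xist.

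In SI BRAFp53 and SI p53, 0 of 11 tested members were called by edgeR, DESeq2 or limma-voom, and 0 had an unadjusted p under 0.05, against 11.5% and 0.0% of all tested genes called by edgeR. Hoxa7 had 412 and 474 counts off and 379 and 217 on in BRAFp53, and 42 and 25 off and 22 and 17 on in p53. SI BRAFp53 on replicate 2 held the lowest Hoxa10 count of its culture (52, against 223 to 274) and 14 counts of Hoxa13, which was at 0 in the other 11 SI libraries. The BRAFp53 and BRAF responses differed for 1 of 11 members, Hoxa7 (8.2% of all tested genes, 6.28% called lower, edgeR adjusted p = 0.0199). This call was absent without SI BRAF on replicate 1 (adjusted p = 0.121), and also without either SI BRAF off library (0.0558 and 0.0953) or SI BRAFp53 on replicate 2 (0.0508). Between tissues, the BRAF responses differed for 3 of 25 members, Hoxa6, Hoxa7 and Hoxa9 (10.7% of all tested genes, 7.4% called lower in COL, edgeR adjusted p = 0.0118, 0.00646 and 0.0305). Without SI BRAF on replicate 1 only Hoxa6 was left (Hoxa7 adjusted p = 0.319), and without SI BRAF off replicate 2 none of the 3 was (0.0532 to 0.145). The BRAFp53 and p53 responses of the tissues differed for 0 of 25 members each by edgeR, DESeq2 and limma-voom (3.52% and 0.117% of all tested genes), with 0 and 2 at an unadjusted p under 0.05.

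Genes that act with or upstream of Hox genes were read from lists. Cdx2, which activates several Hox genes in the gut, was higher in COL, with 73.3 to 118 CPM over the culture means off against 43.6 to 55.8 in SI (log2 difference 1.0, SE 0.2, edgeR adjusted p = 0.0115). Cdx1 did not pass (log2 difference -0.68, SE 0.26, edgeR adjusted p = 0.0903). Among 13 tested regulators of gut position (14 listed), Tbx3 was also called higher in COL and Pdx1 lower. Among 7 tested cofactors of the Pbx and Meis families, which bind DNA together with Hox proteins (9 listed), Meis3 was called higher and Meis2 and Pbx4 lower in COL. Meis2 rose in SI BRAF (0.463 and 0.646 to 2.45 and 2.37 CPM, log2 fold change 2.06 with an SE of 0.35, adjusted p = 0.00062 by edgeR), in SI BRAFp53 and in COL BRAF.

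Other genes inside or beside the clusters, most of them non-coding, were read in the same way. Of 9 tested (15 listed, 12 in the tables), 7 were called higher in COL and 0 lower, against 17.0% of all tested genes called higher and 29.6% called. Hoxa11os, Evx1 and Haglr were at 0 in all 12 SI libraries, so they were tested through their COL counts and could be called in that direction alone. The same holds for Hoxb5os, Hoxb3os and Hoxd3os1, with at most 1, 2 and 3 counts in any SI off library. The count of 7 is therefore a description of the tested genes. Evx1 is a homeobox gene beyond the posterior end of HoxA. Hoxaas2 and Hoxaas3 were detected in every SI library, at 11 to 63 and 44 to 133 counts. Hoxaas2 did not pass between tissues (edgeR adjusted p = 0.347). Hoxaas3, which overlaps Hoxa7, was present also in the SI BRAF off libraries with 0 counts of Hoxa7 (44 and 85). Upon induction, 0 of the tested neighbours were called in any of the 6 comparisons of on with off libraries. The locus of Mir196a-1, the precursor of miR-196a between Hoxb9 and Hoxb13, had 2 to 49 counts in COL libraries and 0 in all 12 SI libraries. Such counts are reads over the annotated hairpin and do not measure the mature microRNA.

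The mature microRNA is shown with its known target site in Hoxb8, the gene that stood below its neighbours in HoxB. In miR-196a-5p (chr11:96265187-96265208, plus strand, RefSeq, GRCm38.p6) capitals mark the seed, bases 2 to 8. The site lies in exon 2 of Hoxb8-201, in the 3′ UTR (chr11:96284888-96284909, plus strand, GENCODE M21, GRCm38), and capitals mark the 21 of 22 bases that are exact complements. The lower-case g lies opposite a U of the seed, a G:U wobble that this count leaves out.
miR-196a-5p: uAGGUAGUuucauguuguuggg
Hoxb8 site: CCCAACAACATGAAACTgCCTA
The next best windows, in Hoxa4, Hoxa9 and Hoxd8, were exact complements at 15 of 22 bases. Hoxb8 had 76 to 378 counts in COL libraries, where the precursor locus was detected in all but 1 library, and 0 to 4 counts in SI libraries, where the locus had 0. What the microRNA does to Hoxb8 in these organoids was not measured.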

How the data were processed

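RNA sequencing counts of 24 organoid libraries were used. The authors deposited raw counts per Ensembl gene, not normalized, in 1 table per tissue. The submitters' processing notes name Trimmomatic 0.36, STAR 2.5.2b and the builds mm10 and mm9. Neither the annotation release nor strand handling is given in the sources used here, so reads of overlapping genes cannot be told apart. Of 45706 identifiers, 45143 matched GENCODE M21 and 563 did not. Transcripts of members in different clusters share exact runs of at most 52 bases.

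Counts were tested with edgeR 4.0.16 in R 4.3.3 (TMM, filterByExpr, glmQLFit, glmQLFTest, Benjamini-Hochberg over all tested genes, threshold 0.05). Each tissue was fitted with its 12 libraries and a mean per group. Tissues were compared over off libraries summed per culture, and responses between tissues in a fit of 24 libraries. SE is the absolute log2 fold change divided by the square root of F. Alternatives used limma 3.58.1, DESeq2 1.42.0, other scaling and filters, a replicate block and left-out libraries. Duplicates differed by more than sampling noise (chi-square over its degrees of freedom, 22.3 to 102).

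The members, lists and tests were chosen with earlier results of these data known. Named genes were Hoxa7, the 6 highest members per tissue, called members (up to 8 per comparison and direction) and members detected in 1 tissue only. Members given to account for the set were named beyond this rule. Results of some genes of the set and lists are not reported here.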

Additional observations from a re-analysis of the deposited data

Results flagged for a closer look

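Tests of the difference between responses to induction called Hoxa7, Hoxa9 and Hoxa6. Those of Hoxa7 and Hoxa9 restate the counts of SI BRAF on replicate 1, which stood apart when the set was chosen, and are no independent evidence of a difference. That of Hoxa6 rests on few counts, 11 and 4 in SI BRAF on against 0 and 0 off. Between tissues, the BRAF response was called different for Hoxa7 (edgeR adjusted p = 0.00646), Hoxa6 (adjusted p = 0.0118) and Hoxa9 (adjusted p = 0.0305), each with more change in SI than in COL. Between genotypes in SI, the BRAFp53 and BRAF responses were called different for Hoxa7 (edgeR adjusted p = 0.0199). Each of these differences uses the SI BRAF on libraries, with 81 and 2 counts of Hoxa7, 33 and 0 of Hoxa9 and 11 and 4 of Hoxa6, and SI BRAF on replicate 1 also held 770 counts of Xist. Without that library, Hoxa6 alone was left of the 3 differences between tissues (Hoxa7 adjusted p = 0.319), and the difference between SI genotypes did not pass (Hoxa7 adjusted p = 0.121). Without SI BRAF off replicate 2, none of the 3 differences between tissues passed (Hoxa7 adjusted p = 0.0532, Hoxa6 0.0709, Hoxa9 0.145), nor did that between SI genotypes (0.0953).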

How the results depend on the processing

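The 12 Hox calls between tissues stayed between 9 and 16 under all alternatives, all higher in COL, and between 9 and 14 with a culture or library left out. Culture differences in COL (13 members) ranged from 8, without COL BRAF off replicate 2, to 14. In SI (4 members) they ranged from 3 to 5, and were 3 without SI BRAF on replicate 1, a setting chosen after seeing the data. Calls upon induction rested on single libraries. With a library left out they ranged from 0 to 1 in COL BRAF (main 1), 0 to 3 in COL BRAFp53 (main 1), 0 to 4 in SI BRAF (main 3), 0 to 2 for the SI BRAFp53 minus BRAF response (main 1), 1 to 4 for the BRAF response of COL minus SI (main 3) and 0 to 1 for BRAFp53 (main 0). The fitted log2 change of Hoxa9 in SI BRAF, whose off libraries were at 0, ranged from 0.0, without SI BRAF on replicate 1, to 8.3, without on replicate 2. A required absolute log2 fold change of 1 left 0 calls in COL BRAF. Without the filter on low counts there were 2 in COL BRAF, 3 in COL BRAFp53, 2 for the COL response difference, 3 for the SI response difference, and 1 each for the BRAFp53 and p53 responses between tissues. DESeq2 gave 2, 4 and 2 calls in COL BRAF, COL BRAFp53 and the COL response difference. Limma-voom gave 3 in COL BRAFp53, 1 in SI BRAF, 0 for the SI response difference and 1 for the BRAF response between tissues. The causes were not tested. Replicate numbers did not pair the libraries (correlation of deviations -0.07 to 0.08). With the replicate block there were 0 calls in COL BRAF, 1 in COL BRAFp53, 2 in SI BRAF, 1 for the SI response difference and 4 for the BRAF response between tissues. At these depths a member at 0 in a library may still be at up to 3 counts.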
